A study of Thlaspi arvense with 6 samples.

Results

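Sucrose is made in the plant cytosol from UDP-glucose and fructose 6-phosphate by sucrose-phosphate synthase, followed by a phosphatase that removes the phosphate. It is cleaved by sucrose synthase, a reversible reaction that yields UDP-glucose and fructose, or by neutral invertases, which yield glucose and fructose. UDP-glucose pyrophosphorylase interconverts UDP-glucose and glucose 1-phosphate, and hexokinases phosphorylate the free hexoses. In the nectaries of Arabidopsis thaliana, sucrose-phosphate synthases are needed for nectar secretion, and the sucrose that leaves the cells through the transporter SWEET9 is hydrolysed outside them by a cell wall invertase.

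The enzymes described here are those whose closest Arabidopsis gene was 1 of 10: sucrose synthase SUS1 (AT5G20830), sucrose-phosphate synthase SPS1F (AT5G20280), the UDP-glucose pyrophosphorylases UGP1 (AT3G03250) and UGP2 (AT5G17310), the hexokinases HXK1 (AT4G29130), HXK2 (AT2G19860) and HXK3 (AT1G47840), the cytosolic invertases CINV1 (AT1G35580) and CINV2 (AT4G09510), and the neutral invertase INVE (AT5G22510). The transcripts were taken from a table of contigs, which are assembled transcript sequences. Contigs were summed by the pennycress (Thlaspi arvense) protein they matched, which gave 12335 loci, and each locus took the Arabidopsis match of its most abundant contig. This gave 8 member loci of 12335, built from 11 contigs. HXK1 was the match of no contig analysed here, and UGP2 matched a contig of the same locus as UGP1, so 9 of the 10 genes had at least 1 contig. In Arabidopsis, HXK3 and INVE are enzymes of the plastid, so that 2 of the 8 loci have relatives outside the cytosol.

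RNA was sequenced from mature, nectar-secreting nectaries (flower stages 14 to 15 by the Arabidopsis scale) and from immature, pre-secretory nectaries (stages 11 to 12), with 3 samples of each. All plants were of the pennycress cultivar MN108, about 40 days old and untreated, and nectaries of the primary inflorescences were dissected by hand over several days, 4 to 8 h after dawn. Every sample was a pool of about 100 nectaries by the sample labels and about 200 by the methods of the study. By those methods, biological replicates came from different sets of plants. Whether same-numbered mature and immature samples shared plants is not stated. The p-values refer to the spread between pools. The values are read counts that the authors upper-quartile normalized and rounded, called normalized counts here. They carry no transcript length, so levels were compared between stages and not between loci. In such bulk RNA, fewer cells of a type and less RNA per cell cannot be told apart.

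The libraries were not alike. Ribosomal RNA took 27.5 to 62.9% of the normalized counts of the mature samples and 12.6 to 42.3% of those of the immature samples, with the highest share in mature replicate 2 and the lowest in immature replicate 3. By an estimate from the values, about 4.32 M counted reads were left outside ribosomal RNA and organelles in mature replicate 2, the fewest. In immature replicate 3, with the most, about 14.7 M were left. Mature replicate 2 had the lowest value of the 3 mature samples for 7 of the 8 members and for 66.2% of the 11780 tested loci. Immature replicate 3 had the highest value of the 3 immature samples for 6 of the 8 members and for 51.3% of tested loci. Results are therefore also given without both of these libraries, an alternative chosen after the data were seen. Of 6 nectary marker genes listed, 5 were matched, among them the nectary regulator CRC and the transporter SWEET9. CRC had at least 18252 normalized counts in all 6 samples and SWEET9 at least 3810. Mean counts rose from 21878 in immature to 33822 in mature nectaries for CRC and from 5967 to 136385 for SWEET9. They also rose from 30839 to 145549 for JMT and from 807 to 5038 for MYB57, but fell from 111972 to 25900 for MNC1. Summed counts of 13 pollen and anther marker loci (12 of 21 genes listed) ranged over 8597 to 68961 in mature samples and over 405 to 1176 in immature samples, with 1 of them at 0 in immature replicates 1 and 3. Those of 5 phloem marker loci (5 of 8 genes listed) ranged over 242 to 280 in mature samples and over 759 to 1892 in immature samples, none at 0. Stomatal markers (2 of 8 genes) summed to 566 to 681 in mature samples and 655 to 812 in immature samples, petal and stamen identity genes (2 of 2) to 352 to 459 in mature samples and 512 to 1126 in immature samples, and neither of the 2 ovule genes was matched.

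Of the 8 member loci, 3 were higher in mature nectaries, 1 was lower and 4 did not pass the test (limma, Benjamini-Hochberg adjusted p under 0.05). Among all tested loci 28.4% were higher in mature nectaries and 35.9% were lower. Mature and immature samples did not overlap for 3 members, SUS1, SPS1F and CINV2, nor for 70.1% of all tested loci. The median log2 fold change (mature over immature) was 0.32 over the members and -0.09 over all tested loci. Calls were thus not more frequent among these 8 loci than among all loci, and the called members differed in direction: the loci of SUS1, UGP1 and CINV2 rose, and that of SPS1F fell. When each contig was tested on its own, 3 of 9 tested member contigs were higher in mature nectaries, against 27.5% of all contigs, and 1 was lower, against 34.2% of all contigs. The other 2 member contigs had means below 100 in both stages and were not tested.

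**Figure D1:**
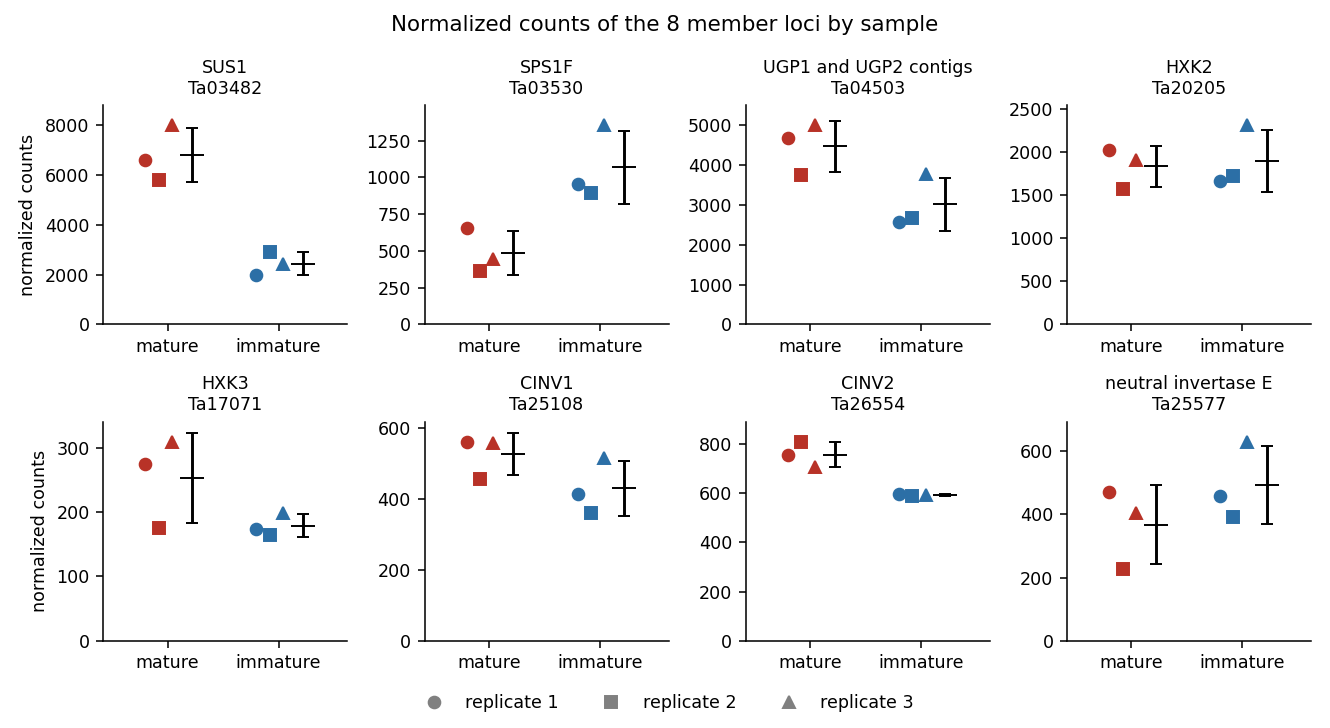
Normalized counts (y axes, each from 0) of the 8 member loci in the 3 mature and the 3 immature samples, with a marker shape for each replicate number and black bars for the mean ± SD of each stage. SUS1 (mature 5808 to 7978, immature 1979 to 2898), SPS1F and CINV2 are the loci whose stages do not overlap.

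SUS1, a sucrose synthase, had the largest change of the members. Its locus, Ta03482, had 6593, 5808 and 7978 normalized counts in the mature samples (replicates 1, 2 and 3), and 1979, 2898 and 2440 in the immature samples. All 3 mature samples lay above all 3 immature samples, and the lowest mature value was in the replicate with the highest ribosomal RNA share. The mean was 6793 ± 1099 in mature nectaries and 2439 ± 460 in immature nectaries (n = 3 each, SD), with a ratio of 2.79. The log2 fold change was 1.48 ± 0.20 (SE, 95% interval 1.02 to 1.94, limma adjusted p = 0.000343). It lay at percentile 92.1 of the log2 fold changes of all tested loci.

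The increase of SUS1 passed the test under all 18 alternative settings tried, at 1.33 to 1.62 on the log2 scale. Without mature replicate 2 and immature replicate 3 together it was 1.60 (limma adjusted p = 0.00323). The pollen and anther markers summed to 8.02 times as much in mature replicate 1 as in mature replicate 2, while SUS1 in replicate 1 was 1.14 times its level in replicate 2. SUS1 also passed without mature replicate 1, the sample with the most of these markers (limma adjusted p = 0.000737). Mature replicates 2 and 3 still had marker sums of 8597 and 22214, above the 405 to 1176 of the immature samples. That fit therefore cannot separate the markers from the stage. The phloem markers had lower sums in the mature samples, where SUS1 was higher. Within each stage, however, the sums ranked the replicates as SUS1 did. They were 252, 242 and 280 in mature replicates 1, 2 and 3, and 759, 1892 and 900 in the immature ones. The part that either cell type had in the SUS1 counts was not tested. SUS1 is 1 contig here, and reads of its close relative SUS4, which was not the match of any contig, may have been counted on it.

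The 2 other sucrose synthase loci both matched SUS3 (AT4G02280), and neither passed the test. Ta16332 had 106, 60 and 67 normalized counts in mature samples and 159, 102 and 110 in immature samples, with a log2 fold change of -0.68 (limma adjusted p = 0.0596). Ta16796 had 227, 72 and 90 in mature samples and 286, 144 and 194 in immature samples, with a log2 fold change of -0.81 (limma adjusted p = 0.131). Both had lower means in mature nectaries, and their stages overlapped. Summed over the 3 sucrose synthase loci, the counts were 6926, 5940 and 8135 in mature samples and 2424, 3144 and 2744 in immature samples, so that the family total followed SUS1.

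UDP-glucose pyrophosphorylase, the enzyme next to sucrose synthase in the use of UDP-glucose, was measured by locus Ta04503. It had 4667, 3758 and 4992 normalized counts in the mature samples (replicates 1, 2 and 3), and 2569, 2679 and 3784 in the immature samples. Mature replicates 1 and 3 exceeded every immature sample, while mature replicate 2 lay just below immature replicate 3, so the stages overlapped by that pair. The mean was 4472 ± 640 in mature nectaries and 3011 ± 672 in immature nectaries (n = 3 each, SD), with a ratio of 1.49. The log2 fold change was 0.58 ± 0.20 (SE, 95% interval 0.12 to 1.05, limma adjusted p = 0.0340). The call depended on single libraries: the adjusted p was 0.0668 without mature replicate 1, 0.115 without mature replicate 3, 0.131 without immature replicate 1 and 0.118 without immature replicate 2. Without mature replicate 2 and immature replicate 3 together, the log2 fold change was 0.88 (limma adjusted p = 0.00221).

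The Ta04503 locus joined a contig that matched UGP1 with one that matched UGP2, and reads of such close copies may have been split between them. The UGP1 contig had 4069, 2828 and 4130 normalized counts in mature samples and 1919, 1927 and 3180 in immature samples (ratio 1.57, limma adjusted p = 0.0497 over all contigs). The UGP2 contig had 598, 930 and 862 in mature samples and 650, 752 and 604 in immature samples (ratio 1.19, adjusted p = 0.329). On their own, the UGP1 contig passed and the UGP2 contig did not, and the UGP2 contig was highest in mature replicate 2, where the UGP1 contig had its lowest mature value. The ratio of the UGP1 contig to the UGP2 contig was 6.80, 3.04 and 4.79 in mature samples and 2.95, 2.56 and 5.26 in immature samples, and it overlapped between the stages (exact two-sided permutation test, p = 0.4, n = 3 each). UGP3 (AT3G56040), which makes UDP-glucose for sulfolipid in the Arabidopsis plastid, went the other way. Its locus Ta15255 had 184, 126 and 165 normalized counts in mature samples and 250, 240 and 280 in immature samples, without overlap (log2 fold change -0.71 ± 0.17 SE, limma adjusted p = 0.00768). The UDP-sugar pyrophosphorylase locus Ta25490 (AT5G52560) had 1327, 1038 and 1225 in mature samples and 1317, 1297 and 1541 in immature samples and did not pass (adjusted p = 0.242).

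SPS1F, the enzyme that commits hexose phosphates to sucrose, was the 1 member that was lower in mature nectaries. Its locus, Ta03530, had 655, 361 and 446 normalized counts in the mature samples (replicates 1, 2 and 3), and 957, 894 and 1353 in the immature samples. Every mature sample lay below every immature sample, with the lowest value in mature replicate 2 and the highest in immature replicate 3. The mean was 487 ± 151 in mature nectaries and 1068 ± 249 in immature nectaries (n = 3 each, SD), with a ratio of 0.456. The log2 fold change was -1.15 ± 0.25 (SE, 95% interval -1.72 to -0.58, limma adjusted p = 0.00396). It passed under all 18 alternatives, at -1.39 to -0.77 on the log2 scale, the smallest change being that without mature replicate 2 and immature replicate 3 together (limma adjusted p = 0.0242). The more abundant of its 2 contigs had 595, 342 and 407 in mature samples and 907, 846 and 1203 in immature samples, again without overlap.

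A second sucrose-phosphate synthase, SPS2F (AT5G11110, locus Ta18750), had 200, 171 and 68 normalized counts in mature samples and 199, 128 and 246 in immature samples. Its stages overlapped and it did not pass (log2 fold change -0.47, limma adjusted p = 0.340). Over both sucrose-phosphate synthase loci the counts summed to 855, 532 and 514 in mature samples and to 1156, 1022 and 1599 in immature samples. The sum was thus lower in each mature sample than in any immature one. The phosphatase that completes sucrose synthesis was represented by 3 loci. Ta05286 (AT2G35840) had 905, 504 and 801 in mature samples and 966, 928 and 1483 in immature samples, without overlap but not past the test (log2 fold change -0.62, limma adjusted p = 0.0686). Ta07954 (AT3G54270) had 176, 121 and 161 in mature samples and 109, 104 and 108 in immature samples and was called higher (log2 fold change 0.49, limma adjusted p = 0.0449). That call was lost without any 1 library other than mature replicate 2 (adjusted p 0.0908 to 0.124) and when samples were rescaled to their total outside ribosomal RNA and organelles (0.0638). The remaining locus, Ta11504 (AT3G52340), was too low to be tested.

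Within a sample, the ratio of 2 loci does not depend on how that sample was scaled. The ratio of SUS1 to SPS1F counts was 10.1, 16.1 and 17.9 in mature replicates 1, 2 and 3, and 2.07, 3.24 and 1.80 in the immature samples. All mature samples lay above all immature samples, and the ratio was 6.20 times as high in mature nectaries (log2 difference 2.63). This separation follows from SUS1 being higher and SPS1F lower without overlap in the same samples, so it is not separate evidence. The exact two-sided permutation test gave p = 0.1 (n = 3 each), the smallest value that this design allows, and 0.167 after adjustment over the 5 ratios tested. SUS1 over the 3 member invertases summed was 3.69, 3.89 and 4.78 in mature samples and 1.35, 2.16 and 1.40 in immature samples. It did not overlap either, and it was 2.56 times as high in mature nectaries (exact permutation p = 0.1, adjusted 0.167, n = 3 each). These ratios are of counts without transcript length, so their change between stages, not their size, can be read.

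**Figure D2:**
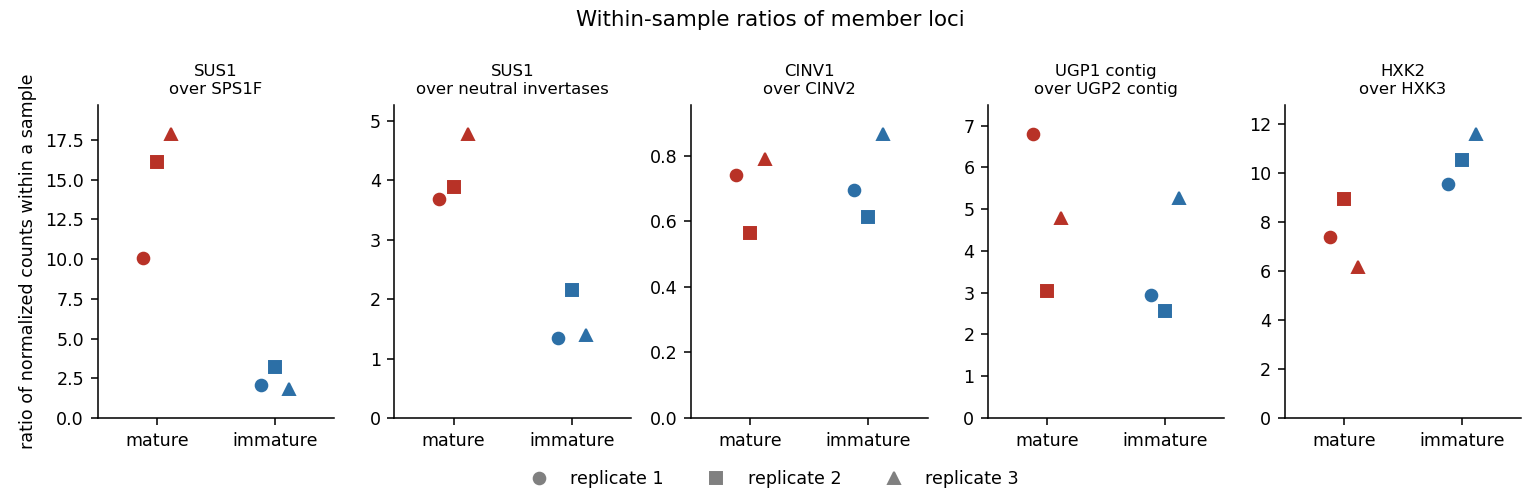
Ratios of normalized counts within each of the 3 mature and 3 immature samples (y axes, each from 0), 1 panel per pair of loci and a marker shape for each replicate number. SUS1 over SPS1F lies at 10.1 to 17.9 in mature samples and at 1.80 to 3.24 in immature samples, and CINV1 over CINV2 overlaps between the stages.

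Of the 3 member neutral invertases, the other route of sucrose cleavage inside the cell, 1 rose and 2 did not pass. For comparison, 28.4% of all tested loci were higher in mature nectaries and 35.9% were lower. CINV2, a cytosolic invertase, had 756, 809 and 705 normalized counts in the mature samples (replicates 1, 2 and 3, locus Ta26554), and 595, 589 and 594 in the immature samples. The immature samples were nearly identical and all mature samples lay above them, with mature replicate 2 the highest. The mean was 757 ± 52.0 in mature nectaries and 593 ± 3.21 in immature nectaries (n = 3 each, SD), with a ratio of 1.28. The log2 fold change was 0.35 ± 0.12 (SE, 95% interval 0.07 to 0.63, limma adjusted p = 0.0344). The spread of the immature samples was smaller than counting error alone would give, since about 506 to 947 reads stood behind each of these values. The call was lost without mature replicate 1 (adjusted p = 0.0564), mature replicate 2 (0.0594), immature replicate 1 (0.102), immature replicate 2 (0.113) or immature replicate 3 (0.0636). It was also lost after rescaling to the total outside ribosomal RNA and organelles (log2 fold change 0.20, adjusted p = 0.252) and after quantile normalization (adjusted p = 0.0938). Without mature replicate 2 and immature replicate 3 together it was 0.30 (limma adjusted p = 0.0498).

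CINV1, the other cytosolic invertase, had 561, 457 and 558 normalized counts in the mature samples (replicates 1, 2 and 3, locus Ta25108), and 414, 361 and 515 in the immature samples. Mature replicate 2 lay below immature replicate 3, so the stages overlapped. The mean was 525 ± 59.2 in mature nectaries and 430 ± 78.2 in immature nectaries (SD, n = 3 each), and the log2 fold change of 0.30 ± 0.17 did not pass (SE, 95% interval -0.09 to 0.69, limma adjusted p = 0.157). CINV1 passed as higher, at 0.53, without mature replicate 2 and immature replicate 3 together (limma adjusted p = 0.0139), and at 0.40 after rescaling by the median ratio (0.0256). The CINV1 and CINV2 contigs were variants of a single assembled component, so reads of the shared stretches cannot be assigned to either with certainty. Their ratio, CINV1 over CINV2, was 0.742, 0.565 and 0.791 in mature samples and 0.696, 0.613 and 0.867 in immature samples (exact two-sided permutation p = 0.8, n = 3 each). The low ratio in both samples numbered 2 and the high one in both samples numbered 3 spanned more than the difference of the stage means.

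INVE, a plastid invertase in Arabidopsis, had 470, 227 and 406 normalized counts in the mature samples (replicates 1, 2 and 3, locus Ta25577), and 458, 392 and 630 in the immature samples. The extremes were again mature replicate 2 and immature replicate 3, and the other 4 samples overlapped. The mean was 368 ± 126 in mature nectaries and 493 ± 123 in immature nectaries (SD, n = 3 each), and the log2 fold change was -0.46 ± 0.29, not past the test (SE, 95% interval -1.13 to 0.21, limma adjusted p = 0.194). Without those 2 libraries the log2 fold change was 0.04 (limma adjusted p = 0.801). Rescaled to the total outside ribosomal RNA and organelles it was -0.61 and passed as lower in mature nectaries (limma adjusted p = 0.0307). The main contig had 365, 206 and 318 in mature samples and 391, 348 and 453 in immature samples, and the minor contig 105, 21 and 88 in mature samples and 67, 44 and 177 in immature samples.

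Of the 3 neutral invertase loci that were not members, 2 fell and 1 did not pass, where 35.9% of all tested loci were lower. INVC (AT3G06500), a mitochondrial invertase in Arabidopsis, had 106, 49 and 67 normalized counts at Ta01650 in mature samples and 115, 154 and 149 in immature samples (log2 fold change -0.96, limma adjusted p = 0.0194). INVB (AT4G34860) had 99, 51 and 69 at Ta11707 in mature samples and 131, 95 and 140 in immature samples (log2 fold change -0.77, limma adjusted p = 0.0422). Both had low counts and both lost the call after quantile normalization (log2 fold changes -0.39 and -0.12, adjusted p = 0.155 and 0.698). INVC also lost it without mature replicate 3 (0.0563), immature replicate 2 (0.0651) or immature replicate 3 (0.0639). INVB lost it without mature replicate 2 (0.0946), mature replicate 3 (0.0962), immature replicate 1 (0.124) or immature replicate 3 (0.131). Without mature replicate 2 and immature replicate 3 together, INVC was at -0.65 (limma adjusted p = 0.109) and INVB at -0.43 (0.229) on the log2 scale. The remaining locus, Ta25484, joined a contig that matched INVA (AT1G56560), also mitochondrial, with 835, 585 and 904 counts in mature samples and 490, 532 and 663 in immature samples, to one that matched INVC, with 429, 294 and 360 in mature samples and 486, 568 and 446 in immature samples. The INVA contig had its higher mean in mature nectaries and the INVC contig in immature ones, and their sum did not pass (adjusted p = 0.709). Over all 6 neutral invertase loci the counts summed to 3256, 2472 and 3069 in mature samples and to 2689, 2691 and 3137 in immature samples, so the family total overlapped between the stages.

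Hexokinases, which return glucose to the phosphate pool and in Arabidopsis also act in glucose sensing, showed no called change among the members. HXK2, found at the mitochondrial surface in Arabidopsis, had 2029, 1566 and 1906 normalized counts in the mature samples (replicates 1, 2 and 3, locus Ta20205), and 1660, 1727 and 2309 in the immature samples. The lowest of all 6 values was in mature replicate 2 and the highest in immature replicate 3. The mean was 1834 ± 240 in mature nectaries and 1899 ± 357 in immature nectaries (SD, n = 3 each). The log2 fold change was -0.04 ± 0.18 (SE, limma adjusted p = 0.849), and its 95% interval of -0.46 to 0.37 bounds what these samples allow. Its sign turned after rescaling by the median ratio (0.06), without mature replicate 2 (0.07), without immature replicate 3 (0.11) and without both (0.22).

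HXK3, the plastid hexokinase, had 274, 175 and 309 normalized counts in the mature samples (replicates 1, 2 and 3, locus Ta17071), and 174, 164 and 199 in the immature samples. Mature replicates 1 and 3 lay above all immature samples, and mature replicate 2 lay among them. The mean was 253 ± 69.5 in mature nectaries and 179 ± 18.0 in immature nectaries (SD, n = 3 each), and the log2 fold change was 0.46 ± 0.22, not past the test (SE, 95% interval -0.05 to 0.97, limma adjusted p = 0.101). About 90 reads stood behind the value of mature replicate 2, the fewest behind any member value, which gives a counting error of 10.5%. HXK3 passed as higher without mature replicate 2 (log2 fold change 0.70, limma adjusted p = 0.00462), without that library and immature replicate 3 (0.78, adjusted p = 0.00574), after rescaling by the median ratio (0.56, adjusted p = 0.0181) and after quantile normalization (0.69, adjusted p = 0.00628). The ratio of HXK2 to HXK3, chosen after the data were seen because HXK1 was not matched, was 7.41, 8.95 and 6.17 in mature samples and 9.54, 10.5 and 11.6 in immature samples. It did not overlap, and it was 0.706 times as high in mature nectaries (exact two-sided permutation p = 0.1, adjusted 0.167, n = 3 each).

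The remaining hexokinase locus, Ta08238, matched HKL1 (AT1G50460), a hexokinase-like protein without known catalytic activity in Arabidopsis. It had 79, 49 and 59 normalized counts in mature samples and 196, 171 and 130 in immature samples, without overlap, and it fell (log2 fold change -1.40 ± 0.25 SE, limma adjusted p = 0.00133). Fructokinases phosphorylate the fructose that sucrose synthase and invertases release. Of 7 genes listed, 3 loci were found, and all passed the test, 2 higher and 1 lower. Among all tested loci 28.4% were higher and 35.9% lower. Ta16852 (AT2G31390) had 2950, 2620 and 2860 in mature samples and 1369, 1734 and 2555 in immature samples (log2 fold change 0.62, limma adjusted p = 0.0403). Its mature samples all lay above the immature ones, but the call was lost without any 1 library other than immature replicate 3 (adjusted p 0.0521 to 0.151) and after rescaling to the total outside ribosomal RNA and organelles (0.0507). Ta17838 (AT5G51830) had 299, 272 and 300 in mature samples and 174, 161 and 207 in immature samples (log2 fold change 0.69, limma adjusted p = 0.00370), and this held under all 17 alternatives that gave it a value. Ta22569 (AT1G66430), a plastid fructokinase in Arabidopsis, had 74, 47 and 67 in mature samples and 689, 596 and 881 in immature samples (log2 fold change -3.51, limma adjusted p = 8.49e-06).

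**Figure D3:**
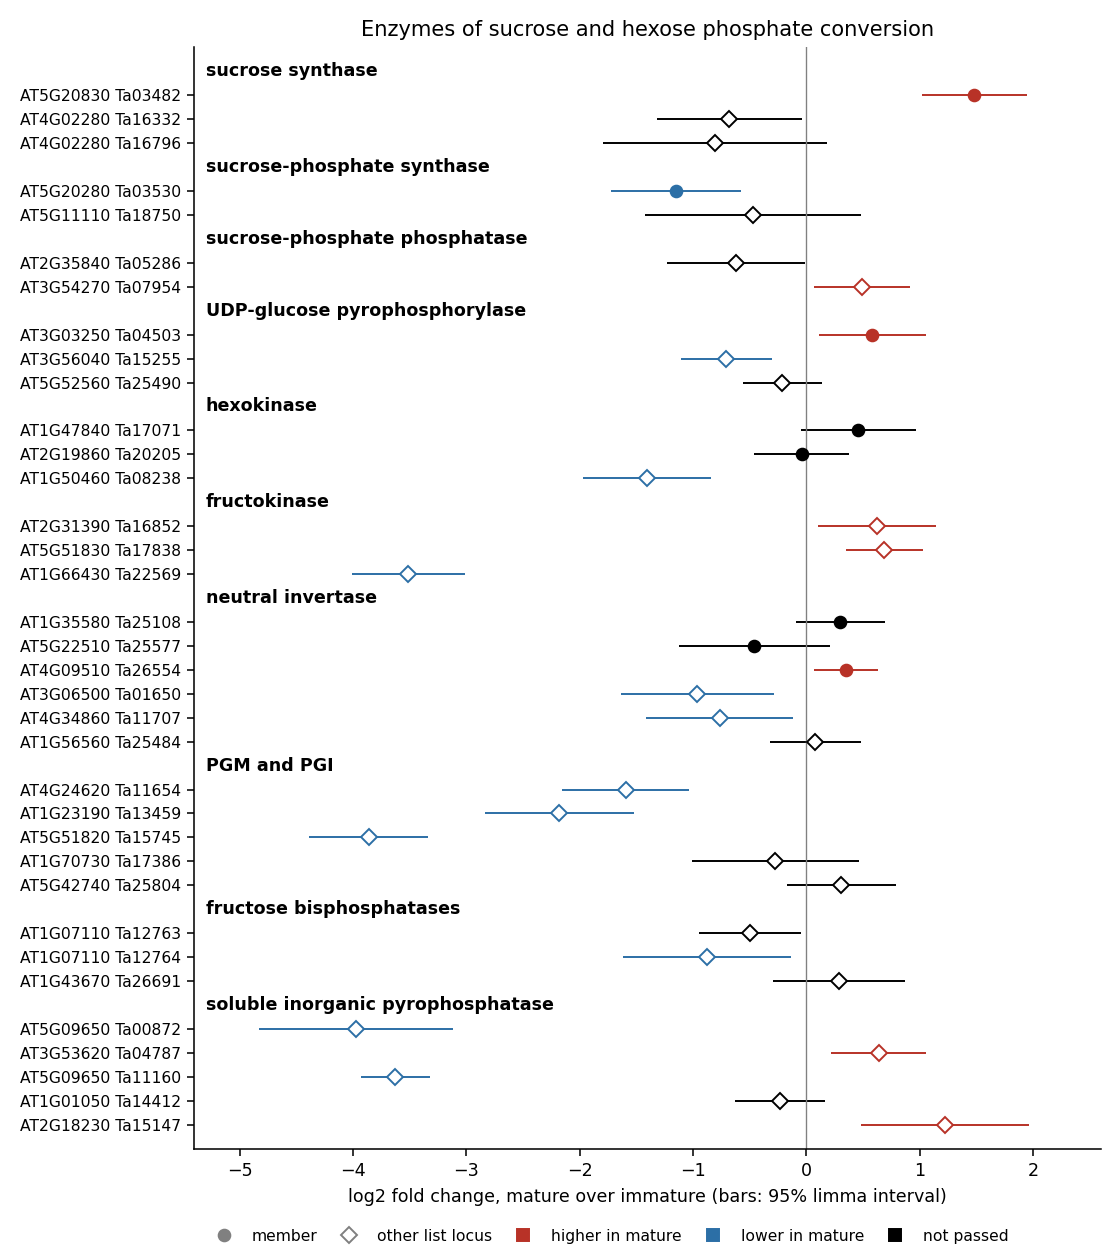
Log2 fold change, mature over immature (x axis, bars are 95% limma intervals), of the tested loci of 10 enzyme groups, with filled circles for members and open diamonds for other loci, named by Arabidopsis match and pennycress locus. SUS1 (AT5G20830, 1.48) and SPS1F (AT5G20280, -1.15) lie on opposite sides of 0, and the lowest values, down to -3.97, are those of AT5G09650, AT5G51820 and AT1G66430.

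Further loci of sucrose and hexose phosphate conversion were taken from 12 lists of 63 Arabidopsis genes, 53 of them not members, of which 30 were matched. They formed 33 loci, of which 31 were tested: 7 were higher in mature nectaries, 12 were lower and 12 did not pass. These were 22.6% higher and 38.7% lower, near the 28.4% and 35.9% of all tested loci. Their median log2 fold change was -0.50, against -0.09 over all tested loci. Rescaled to the total outside ribosomal RNA and organelles, the split was 5 higher and 18 lower, and that of the members was 2 higher and 2 lower, while 25.5% of all tested loci were then higher and 43.7% lower. Phosphoglucomutase and phosphoglucose isomerase, which interconvert glucose 1-phosphate, glucose 6-phosphate and fructose 6-phosphate, gave 3 lower and 2 not passed of 5. Soluble inorganic pyrophosphatases, which remove the pyrophosphate that UDP-glucose pyrophosphorylase makes or uses, gave 2 higher, 2 lower and 1 not passed of 5. The loci of cytosolic fructose bisphosphatase and of the enzyme F2KP, which sets its inhibitor fructose 2,6-bisphosphate, gave 1 lower and 2 not passed of 3.

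Sorted after the values were seen by the place of the enzyme in Arabidopsis, the 6 tested plastid loci that were not members were all lower in mature nectaries, with log2 fold changes of -3.97 to -0.71. Plastid phosphoglucomutase PGM1 (AT5G51820, Ta15745) had 24, 25 and 37 normalized counts in mature samples and 414, 360 and 504 in immature samples (log2 fold change -3.86, limma adjusted p = 7.09e-06). Plastid phosphoglucose isomerase PGI1 (AT4G24620, Ta11654) had 488, 319 and 516 in mature samples and 1273, 1028 and 1698 in immature samples (log2 fold change -1.59, limma adjusted p = 0.000638). The plastid pyrophosphatase PPa6 (AT5G09650) had 89, 73 and 81 at Ta11160 in mature samples and 972, 1033 and 1025 in immature samples (log2 fold change -3.63, limma adjusted p = 1.61e-06). At a second locus, Ta00872, it had 26, 10 and 18 in mature samples and 240, 231 and 389 in immature samples (log2 fold change -3.97, limma adjusted p = 5.31e-05). The stages did not overlap at any of the 6, as at 70.1% of all tested loci. All 6 passed under every alternative that gave them a value, and 35.9% of all tested loci were lower in mature nectaries. PGM1, both PPa6 loci and the fructokinase Ta22569 had mature means of 18 to 81. These loci met the minimum mean of 100 only through the immature stage, where they were high. The smallest changes of PGM1 and Ta00872 were those after quantile normalization, -3.27 and -3.31 on the log2 scale, and Ta00872 was at -3.38 without mature replicate 2 and immature replicate 3 together. The 2 plastid members did not share this: HXK3 had a log2 fold change of 0.46 and INVE of -0.46, and neither passed. Since the grouping was made with these values in view, it carries no test, and the difference between these members and the other plastid loci was not tested.

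The cytosolic loci were mixed. Of 19 tested loci of the cytosol and organelle surfaces that were not members, 5 were higher in mature nectaries, 4 were lower and 10 did not pass. Among all tested loci 28.4% were higher and 35.9% lower. The cytosolic phosphoglucomutase PGM3 (AT1G23190, Ta13459) had 452, 251 and 431 normalized counts in mature samples and 1317, 1490 and 2329 in immature samples and fell (log2 fold change -2.18, limma adjusted p = 0.000288). The other cytosolic phosphoglucomutase, PGM2 (AT1G70730, Ta17386), had 2026, 1019 and 2098 in mature samples and 1684, 1635 and 2784 in immature samples and did not pass (adjusted p = 0.473). The cytosolic isomerase PGIC (AT5G42740, Ta25804) had 2185, 1708 and 2295 in mature samples and 1546, 1353 and 2160 in immature samples, overlapping between stages (adjusted p = 0.226). The pyrophosphatases PPa2 (AT2G18230, Ta15147) and PPa4 (AT3G53620, Ta04787) rose. PPa2 had 762, 335 and 748 in mature samples and 196, 263 and 289 in immature samples (log2 fold change 1.22, limma adjusted p = 0.0101). PPa4 had 761, 471 and 600 in mature samples and 402, 382 and 371 in immature samples (log2 fold change 0.64, limma adjusted p = 0.0154). Of the 2 F2KP loci (AT1G07110), Ta12764 had 424, 171 and 305 in mature samples and 446, 457 and 674 in immature samples and was called lower (log2 fold change -0.88, limma adjusted p = 0.0417). That call was lost without any 1 library other than mature replicate 1 (adjusted p 0.0603 to 0.142), without mature replicate 2 and immature replicate 3 together (log2 fold change -0.33, adjusted p = 0.174) and in the fit without a variance trend (0.0563).

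**Figure D4:**
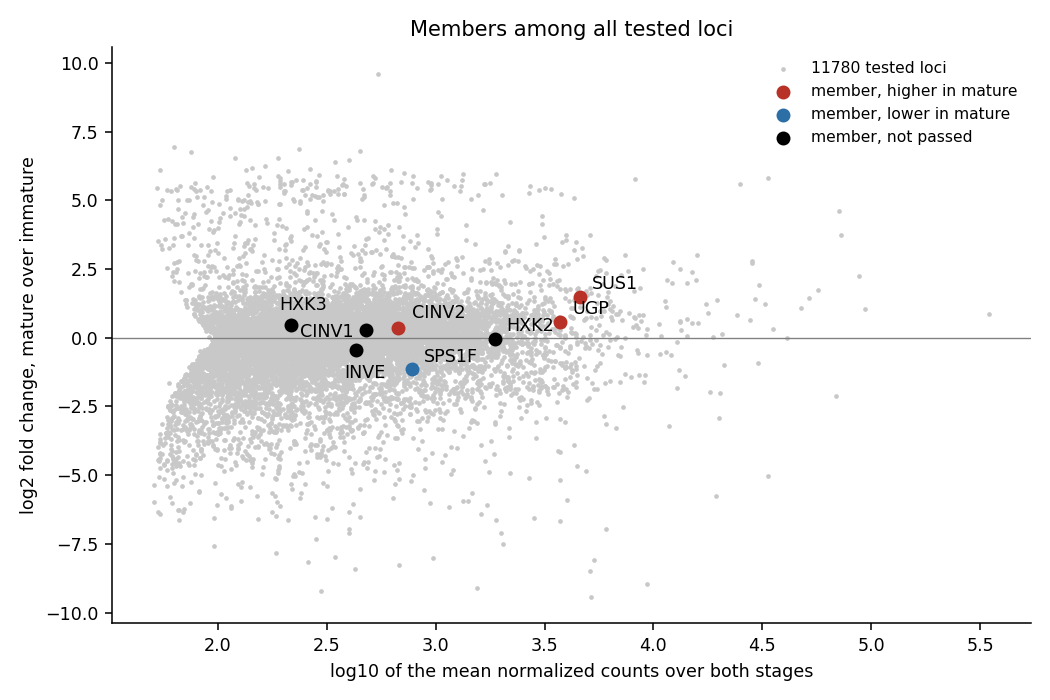
Log2 fold change, mature over immature (y axis), against the log10 of the mean normalized counts over both stages (x axis) for the 11780 tested loci (grey) and the 8 members (large points, coloured by their call). SUS1 is the highest member at 1.48 and SPS1F the lowest at -1.15, both inside the spread of all loci.

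The loci whose counts followed SUS1 most closely over the 6 samples were sought among the 2414 loci whose mean reached 1000 in 1 or both stages. With Pearson's r on the log2 scale, 277 of them had an r above 0.95, so a close match to this pattern was common, and the 6 points share the difference between the stages. The top 3 were a thioredoxin H-type 5 (AT1G45145, Ta24797, r = 0.994), phloem protein 2-B1 (AT2G02230, Ta06523, r = 0.992) and a protein of the NTF2 family (AT2G46100, Ta21459, r = 0.991). The thioredoxin had 16741, 15940 and 19702 normalized counts in mature samples and 10105, 12062 and 10683 in immature samples. Phloem protein 2-B1 had 1534, 1517 and 2119 in mature samples and 388, 492 and 448 in immature samples. All 3 shared with SUS1 its highest value in mature replicate 3 and its highest immature value in replicate 2. Since they were chosen for following SUS1 over these samples, this is not a separate result.

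**Figure D5:**
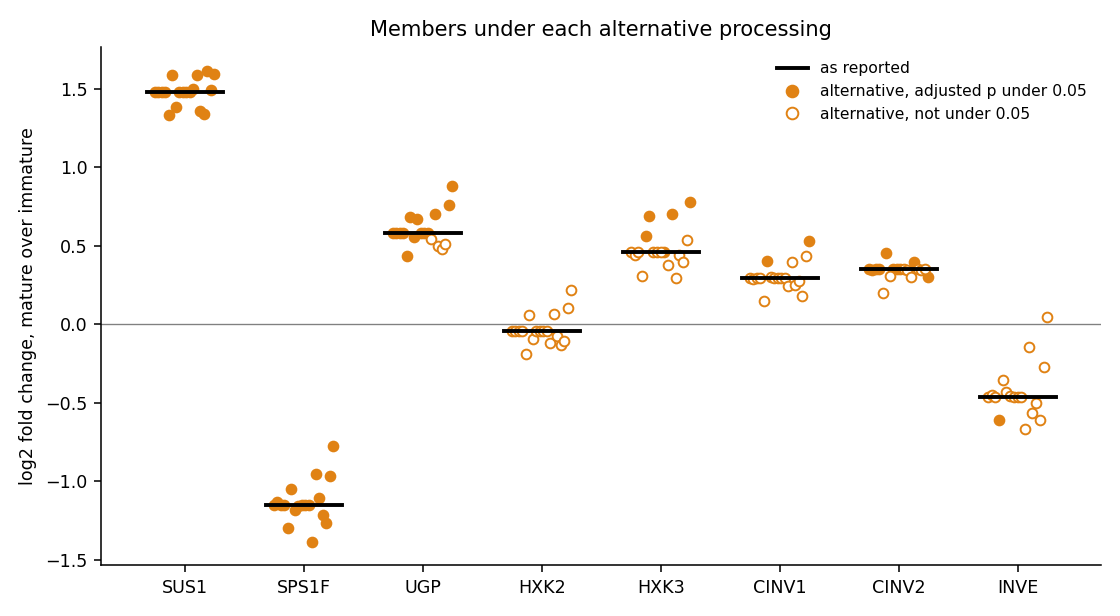
Log2 fold change, mature over immature (y axis), of each member as reported (black line) and under each alternative processing or left-out library (circles, filled where the limma adjusted p was under 0.05). All circles of SUS1 (1.33 to 1.62) and SPS1F (-1.39 to -0.77) are filled, while those of the other 6 loci are in part or wholly open.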

How the data were processed

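The deposited values are scores: reads counted on each contig, put on an upper-quartile scale by the authors and given as whole numbers. The authors assembled the 50 bp paired reads of each stage separately with Trinity, added the contigs of an earlier pennycress transcriptome, and counted reads on the combined set with blastn (E-value 1e-05). For the draft genome, no version was found in the labels or methods. The authors' own ratios and p-values per contig, also deposited, were not used.

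The 16074 contigs were summed by predicted pennycress protein, and 617 without one were left out of the loci. Contigs reach at least 101 in 1 sample, so lower ones were not seen. Since the values are not raw counts, limma 3.58.1 (R 4.3.3) was fitted to log2(sum + 1) with a variance trend, two-sided, for loci averaging 100 or more in 1 or both stages, with Benjamini-Hochberg adjustment over all of them. A fold change on this scale understates low loci. Ratios within a sample were compared with exact permutation tests (20 arrangements). Other steps used matplotlib 3.10.9, scipy 1.17.1, numpy 2.4.6 and pandas 2.3.3 in Python 3.11.15. The totals of normalized counts were 14675385, 22709136 and 16129504 in mature replicates 1 to 3, and 12467546, 14213116 and 10572166 in immature replicates 1 to 3. Gaps between low values gave about 11.7 to 16.9 M reads per sample. These are estimates of the reads counted on the contigs analysed here, and the study reports more reads sequenced. Where a scaling factor lies below 1, whole reads cannot be recovered, so read numbers and counting errors are approximate.

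The members and gene lists were chosen with earlier results of these data known. Named are all members, per list the called loci with the lowest adjusted p (4 at most), the 3 loci most like SUS1 and the nectary marker loci found. The other marker loci found, also planned for naming, are given as sums only. Other loci are named where a family total or contrast needed them, after their values were seen. A planned ratio of HXK1 to HXK2 could not be made. The alternatives were no filter or a minimum mean of 500, pseudocounts of 0.5 and 10, 3 rescalings, the most abundant contig per locus, limma without trend or with robust moderation, a replicate block, and leaving out each library.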

Additional observations from a re-analysis of the deposited data

How the results depend on the processing

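SUS1 and SPS1F kept their direction and their call under all 18 alternatives. The count of members higher in mature nectaries (3) was 5 after rescaling by the median ratio (35.1% of all tested loci, against 28.4%), and 1 to 5 when libraries were left out: 1 without mature replicate 1, immature replicate 1 or immature replicate 2 (25.3, 23.6 and 23.2% of all loci), and 5 without mature replicate 2 and immature replicate 3 together (33.1%). The share over all loci moved the same way each time. The count of members lower (1) was 2 after rescaling to the total outside ribosomal RNA and organelles. With a mean of at least 500 the list loci lower in mature nectaries were 6, and all loci gave 1856 higher and 1566 lower, against 3348 and 4225, since only 4954 loci were then tested. The median log2 fold change of all loci moved by -0.15 with the total, 0.10 with the median ratio, 0.13 with quantile normalization and 0.20 with the higher minimum, so fold changes near 0 can be read only relative to that shift. HXK2 turned to 0.062 with the median ratio and ranged over -0.13 to 0.22 with libraries left out, and INVE, at -0.67 to 0.044 with libraries left out, turned to 0.044 without mature replicate 2 and immature replicate 3. The log2 difference of CINV1 over CINV2 (-0.05) ranged over -0.17 to 0.094 with 1 library left out, turning to 0.094 without mature replicate 2 and to 0.084 without immature replicate 3. The causes were not tested.

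Same-numbered samples did not deviate together (r = -0.07, 0.01 and 0.20 across loci), and only replicate 3 correlated best with its own number, so they were not treated as pairs. With a replicate block, members gave 3 higher and 1 lower and all loci 3454 higher and 4320 lower. HXK3 then passed (adjusted p = 0.0497) and CINV2 did not, just above the threshold, and the AT3G54270 phosphatase was lost (0.0514). The log2 difference of SUS1 over SPS1F under the block was 2.63 (exact sign-flip p = 0.25, the smallest possible). With 3 samples per stage, the log2 fold changes of members have standard errors of 0.12 to 0.29. These are not detection limits, since changes larger than their own standard error also did not pass. Examples are HXK3 (0.46, SE 0.22) and INVE (-0.46, SE 0.29). Leaving out both libraries leaves 4 samples.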

Other observations

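Sucrose outside the cytosol is cleaved by acid invertases of the cell wall and the vacuole. Of their 4 tested loci, 2 were higher in mature nectaries, 1 was lower and 1 did not pass, against 28.4% higher and 35.9% lower of all tested loci. The cell wall invertase CWINV4 (AT2G36190, Ta24444), needed for nectar in Arabidopsis, had 80151, 89361 and 89866 normalized counts in mature samples and 20432, 21419 and 38803 in immature samples (log2 fold change 1.75, limma adjusted p = 0.00167). After quantile normalization its log2 fold change was 0.79 (limma adjusted p = 0.0210). The vacuolar invertase VIN2 (AT1G12240, Ta03090) had 418, 134 and 117 in mature samples and 850, 1041 and 1146 in immature samples and fell (log2 fold change -2.42, limma adjusted p = 0.00152). Both stages were apart for each of these loci.

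CWINV2 (AT3G52600, Ta11479) had 4568, 527 and 1551 normalized counts in mature samples and 20, 43 and 26 in immature samples (log2 fold change 5.73, limma adjusted p = 0.000177). With an immature mean of 29.7, it met the minimum mean of 100 only through the mature stage, where it was high. The log2 fold change was 4.95 without mature replicate 1, 6.51 without mature replicate 2 and 6.45 without mature replicate 2 and immature replicate 3 together. Its counts were 6.62, 6.13 and 6.98% of the summed pollen and anther markers in the mature samples and 3.77, 3.66 and 6.42% in the immature samples. In mature replicate 1 it was 8.67 times its level in mature replicate 2, and the markers were 8.02 times theirs. SUS1, in contrast, was 9.56, 67.6 and 35.9% of that marker sum in the mature samples and 373, 246 and 602% in the immature samples. The part that pollen had in the CWINV2 counts was not tested.

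An invertase inhibitor, C/VIF2 (AT5G64620, Ta11149), had 19, 25 and 21 normalized counts in mature samples and 95, 106 and 28 in immature samples and was too low to be tested.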
